A study of Mus musculus with 12 samples.

Results

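DNA repair and damage signalling genes were followed in mouse skin and in squamous cell carcinomas of the skin that arose under chronic ultraviolet radiation, with and without TAp63. TAp63 names those isoforms of the transcription factor p63 that start with a transactivation domain. The genes were chosen by name from a list of 46, of which 45 were measured among 34303 gene symbols, and Fanca was not analysed here. The RNA sequencing libraries fell into 4 groups of C57Bl6 mice. Wild-type (WT) carcinomas (cSCC, n = 2) and TAp63-/- carcinomas (n = 4) came from mice older than 35 weeks that were irradiated chronically, with a dose of 2.5 kJ/m2 given 3 times weekly. WT skin (n = 3) and TAp63-/- skin (n = 3) was untreated shaved dorsal skin of mice aged 4 weeks. RNA came from bulk tissue, so a lower share of cells of 1 type and less RNA per cell cannot be told apart in any value below. No irradiated skin without a tumour was among the groups, so radiation and tumour cannot be told apart either.

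Ultraviolet light joins neighbouring pyrimidines in DNA, and nucleotide excision repair cuts such lesions out, either genome-wide or where a lesion blocks a transcribing polymerase. Lesions that persist into replication are bypassed by translesion polymerases, and stalled or broken forks are handled by homologous recombination, the Fanconi pathway and the checkpoint kinases. Many genes of recombination and fork repair are transcribed mainly in dividing cells, whereas the core excision factors are expressed in resting cells as well.

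Values are FPKM, a level per transcript length and library size, so levels may be compared between genes. The summed FPKM was nearly equal in all libraries (780180 to 780251) and the read depth was unknown. Tissue was joined to age, radiation, the naming series of the titles and, apart from TAp63-/- cSCC 1, to sex as read from Xist and Y-linked genes (that tumour and all skin male, the other 5 tumours female). Epidermal keratins (4 of 4 genes found) summed to 8350 to 23290 FPKM in tumours and 5177 to 9233 in skin, and the wound keratin list (4 of 4) to 5003 to 24580 and 427 to 1309. Skeletal muscle genes (5 of 6) summed to 39.3 to 557 FPKM in tumours and 4505 to 9109 in skin, and mitosis genes (12 of 12) to 173 to 464 and 67.2 to 234. Cornified genes (3 of 3) summed to 46.1 to 134 FPKM in tumours and 173 to 341 in skin, fibroblast genes (4 of 4) to 504 to 1434 and 1598 to 4793, and leukocyte genes (5 of 5) to 14.1 to 156 and 37.7 to 78.0. Adipocyte genes (4 of 4) summed to 52.5 to 2651 FPKM in tumours and 420.0 to 2480 in skin, and hair genes (6 of 6) to 6.33 to 2409 and 8.98 to 3598. No gene of these tissue lists was at 0 in every library of a group, and the part that tissue makeup, sex or dividing cells have in the repair gene values was not tested beyond the fits with a covariate given below.

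All 45 measured repair genes had values above 0 in all 12 libraries and passed the filter of at least 1 FPKM in at least 2 libraries, as did 14752 genes in all. Brca2 and Palb2 were below 1 FPKM in every skin library and Exo1 in 5 of 6, so these 3 passed only with the tumours. The excision genes Rad23b (mean of 70.5 FPKM in skin and 112 in tumours) and Ddb1 (65.3 and 83.7) had the highest levels of the 45 in both tissues. The nuclease gene Exo1 had the lowest (0.656 and 1.57). Apart from Apex1, Ercc1 and Lig1, which follow next, the remaining genes had mean levels of 0.697 to 12.3 FPKM in skin and 1.69 to 16.1 in tumours.

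No repair gene passed the test between TAp63-/- and WT in either tissue. In skin, limma called 0 of the 45 genes at an adjusted p below 0.05, beside 0.0203% of all tested genes. The TAp63-/- mean was higher for 19 genes and lower for 26, with a median log2 change of -0.08 (0.02 over all tested genes). Ercc8, a factor of transcription-coupled repair, was the only one with an unadjusted p below 0.05. It had 6.99, 5.66 and 8.17 FPKM in WT skin and 4.82, 4.48 and 5.38 in TAp63-/- skin (adjusted p = 0.923). Changes ran from -0.51 for Lig1 to 0.41 for Polh, the polymerase that copies past ultraviolet lesions. Polh had 4.85, 4.01 and 4.60 FPKM in WT skin and 6.37, 4.92 and 7.88 in TAp63-/- skin (SE 0.18, adjusted p = 0.923).

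Between tumours of the 2 genotypes, limma called 0 of 45 repair genes, beside 0% of all tested genes. An unadjusted p below 0.05 was reached by 0 of 45, beside 2.84% of all tested genes. The TAp63-/- mean was higher for 23 and lower for 22, with a median log2 difference of 0.00289 (0.03 over all genes). The extremes were Rad23b (0.42, SE 0.25) and Ercc1 (-0.32, SE 0.34), both at an adjusted p of 1. For Rad23b the 4 TAp63-/- tumours (100.1 to 151 FPKM) lay above the 2 WT tumours (85.2 and 96.3), and for Ercc1 the genotypes overlapped. The interaction, which asks whether the tumour-skin change differed between genotypes, called 0 of 45 (beside 0.0271% of all genes). In it 0 of 45 had an unadjusted p below 0.05, beside 3.01% of all tested genes. The largest interaction values were 0.64 for Xpa (SE 0.38) and 0.56 for Xpc (SE 0.32).

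Most repair genes had a higher mean in tumours than in skin of the same genotype. In WT, 39 of the 45 genes were higher in tumours, with a median log2 change of 0.41 (0.04 over all tested genes). Limma called 1 of them higher, Chek2, beside 4.66% of all tested genes, and 0 lower, beside 6.77%. In TAp63-/- mice 41 of 45 were higher, with a median of 0.52 (0.10 over all genes), and 8 were called higher (17.8%, beside 13.0% of all tested genes). None of the 45 was called lower, beside 14.2%. Palb2 among the 8, and Brca2 and Exo1 among the higher genes, had passed the filter only with the tumours. Unadjusted p was below 0.05 for 9 of 45 genes in WT (28.1% of all tested genes) and for 18 in TAp63-/- mice (40.2% of all), so neither count exceeded the share over all genes. Both tumour-skin comparisons used separate libraries: 37 of 45 genes were higher in both (45.4% of all tested genes were), and Xrcc1 and Parp1 were lower in both. Chek2 alone was called in both (2.22% of the 45, beside 4.02% of all genes).

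**Figure D1:**
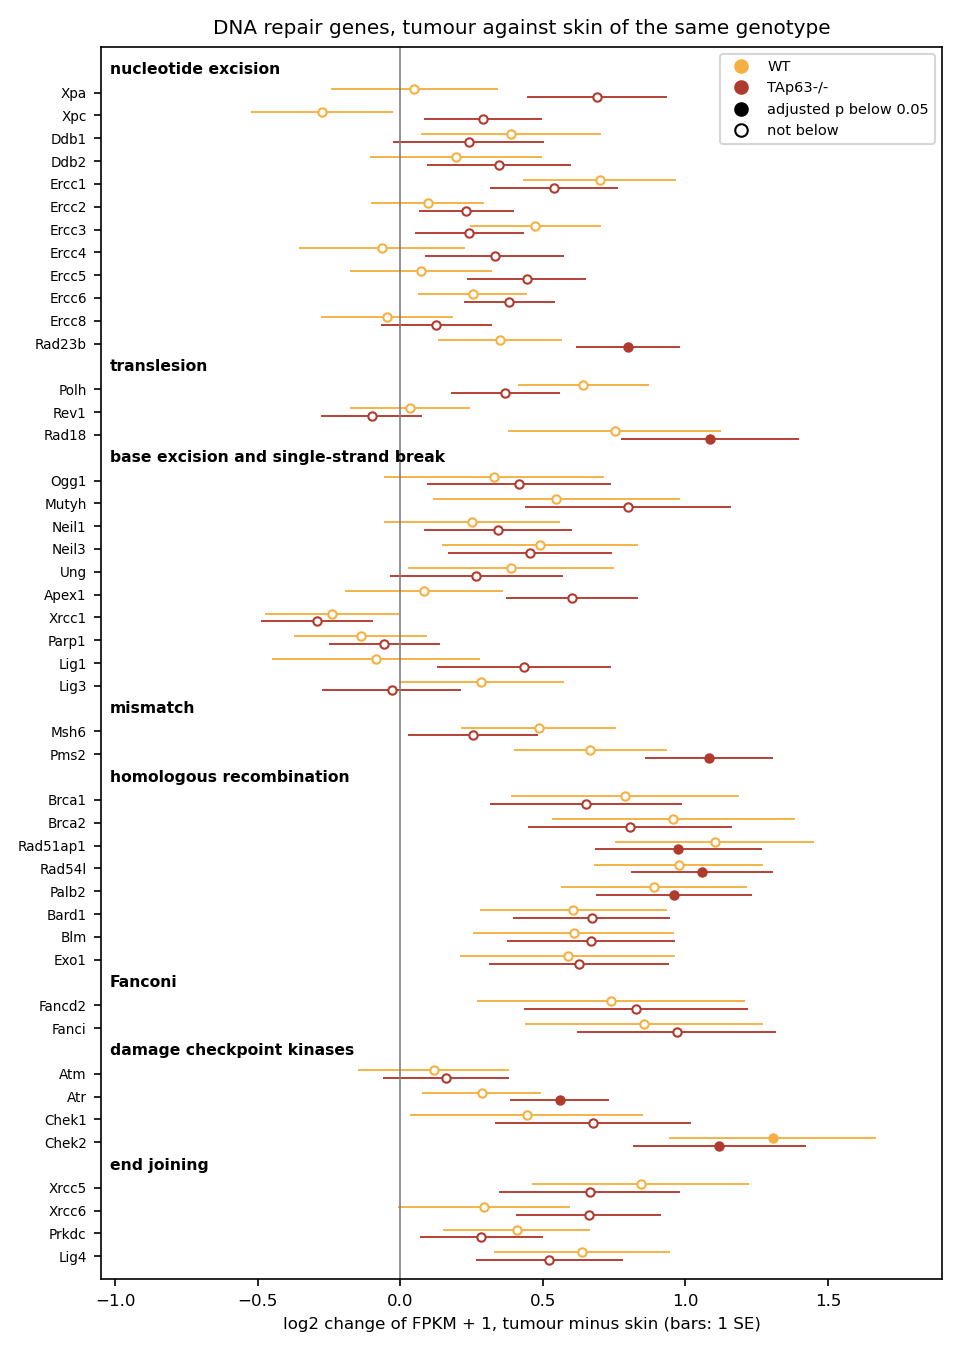
Change of each repair gene from skin to tumour on the log2(FPKM + 1) scale (x axis), grouped by pathway (y axis), in WT (orange) and TAp63-/- mice (red). Bars are 1 SE of limma's fit and filled points have an adjusted p below 0.05. Points lie right of 0 for 39 genes in WT and 41 in TAp63-/- mice, with 1 and 8 filled.

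All 6 tumours lay above all 6 skin libraries for 9 of the 45 genes, beside 11.0% of all tested genes, and all 6 lay below for 0, beside 10.9%. The 9 were Rad23b, Rad18, Pms2, Brca2, Rad54l, Palb2, Fanci, Chek2 and Lig4, of which Brca2 and Palb2 had passed the filter through the tumours alone, so this count is a description. Ratios of the mean FPKM of all 6 tumours to that of all 6 skin libraries were largest for Palb2 (3.37), Brca2 (3.19), Chek2 (3.09) and Fanci (3.08). By genotype they were 3.25 in WT and 3.36 in TAp63-/- mice for Palb2, and in the same order for Brca2 (3.90 and 2.90), Chek2 (3.50 and 2.85) and Fanci (2.89 and 3.51). The smallest ratios over all 6 were those of Xrcc1 (0.796, and 0.833 and 0.799 by genotype) and Parp1 (0.958, and 0.919 and 0.955).

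Levels also differed between libraries of 1 tissue. WT cSCC 1 was the highest of all 12 libraries for 21 of the 45 genes (13.6% of all tested genes), TAp63-/- cSCC 3 for 9 (17.7% of all tested genes) and TAp63-/- cSCC 4 for 7 (6.41% of all). WT cSCC 2 was the lowest of the 6 tumours for 19 genes (19.3% of all tested genes) and the highest for 0. TAp63-/- skin 1 was the lowest of all libraries for 25 (12.4% of all tested genes). The mean log2(FPKM + 1) of the mitosis genes was also highest in WT cSCC 1 (5.05) and lowest in TAp63-/- skin 1 (2.47). Among tumours it was lowest in TAp63-/- cSCC 1 (3.68), whereas WT cSCC 2 had 4.06. In TAp63-/- skin 1 the same kind of mean was the highest of all libraries for muscle (10.31) and fibroblast genes (10.11). For hair genes it was the lowest of the skin libraries (1.10). In WT cSCC 2 such a mean was the highest of the tumours for hair (7.67) and muscle genes (6.39). The same was so for epidermal (12.08) and wound keratins (12.26). The mitosis mean was 3.68 to 5.05 across tumours and 2.47 to 4.06 across skin, so tissues overlapped in it. With that mean as a covariate in limma's fit, 27 of 45 repair genes were higher in WT tumours (median 0.09) and 33 in TAp63-/- tumours (median 0.23), and 0 were called in either, beside 1.40% of all tested genes called higher in WT and 4.33% in TAp63-/- tumours in the same fit. With sex as a covariate 0 were called as well (1.02% and 5.91% of all genes called higher), and likewise with the mean of the muscle genes (0.0475% and 0%).

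**Figure D2:**
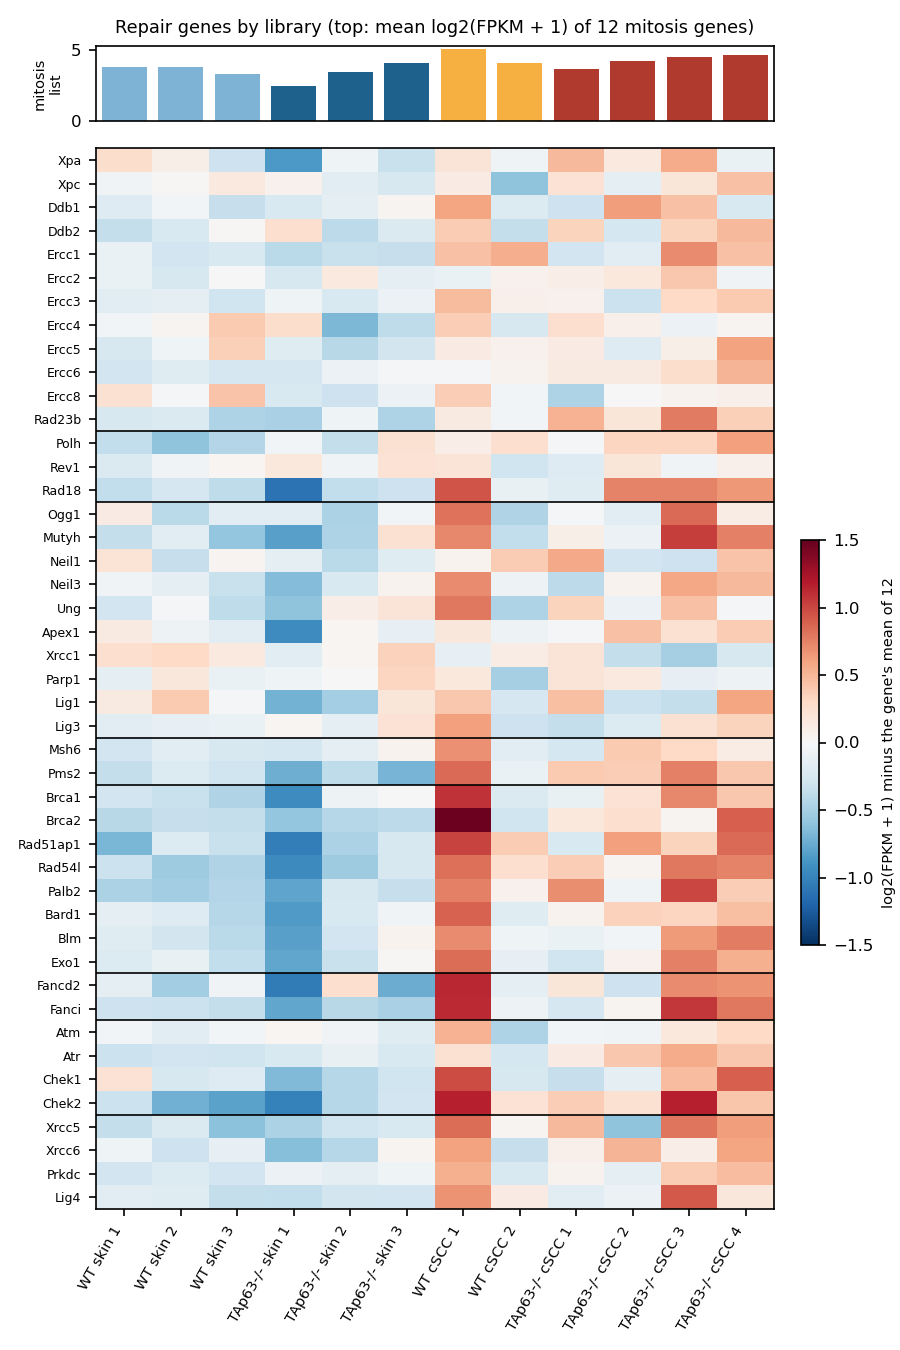
Heat map of log2(FPKM + 1) of the 45 repair genes (rows, by pathway) in the 12 libraries (columns), minus each gene's mean over the 12, with the mean log2(FPKM + 1) of 12 mitosis genes per library as bars above. WT cSCC 1 is the reddest column, highest of all for 21 genes, and TAp63-/- skin 1 the bluest, lowest for 25.

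Promoters were read for 39 of the 45 genes from RefSeq (build GRCm38.p6, 250 bases before to 50 after the start of transcription, on the strand of the gene), since many of these genes had their highest or lowest value in the same library. Letters of an E2F site, bound by factors that drive genes of the S phase, were sought on both strands as TTTCCCGC, TTTCGCGC, TTTGCCGC or TTTGGCGC. They were found in 6 of 39 genes (15.4%), beside 704 of 27025 genes in the whole table (2.6%). The 6 were Chek2, Brca2, Bard1, Msh6, Xrcc6 and, at 1 of its 3 starts, Lig1. Of the 8 genes called between tumour and skin below, Chek2 held such letters and the other 7 held none in this window. Letters of a cell cycle homology region (TTTGAA or TTTAAA, both strands) were found in 5 of 39 (12.8%), beside 30.6% of all genes. A match is a stretch of letters and not a bound site. The whole table was not limited to the genes tested here, and base composition of the promoters was not compared, so these shares are a description. Shown are the promoters of Chek2 (chr5:110839733-110840032, plus strand), called in both genotypes, of Brca2 (chr5:150522371-150522670, plus strand), with the widest range over the tumours on the log2(FPKM + 1) scale, and of Pms2 (chr5:143909751-143910050, plus strand), with the smallest p and no match. Capitals mark the E2F letters, which lie on the opposite strand in Chek2 and Brca2.
Chek2: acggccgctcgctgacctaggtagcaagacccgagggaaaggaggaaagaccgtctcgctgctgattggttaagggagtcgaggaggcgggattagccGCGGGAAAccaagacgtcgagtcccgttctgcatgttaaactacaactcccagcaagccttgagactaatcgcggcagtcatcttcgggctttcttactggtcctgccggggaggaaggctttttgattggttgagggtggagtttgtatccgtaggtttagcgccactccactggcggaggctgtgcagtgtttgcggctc
Brca2: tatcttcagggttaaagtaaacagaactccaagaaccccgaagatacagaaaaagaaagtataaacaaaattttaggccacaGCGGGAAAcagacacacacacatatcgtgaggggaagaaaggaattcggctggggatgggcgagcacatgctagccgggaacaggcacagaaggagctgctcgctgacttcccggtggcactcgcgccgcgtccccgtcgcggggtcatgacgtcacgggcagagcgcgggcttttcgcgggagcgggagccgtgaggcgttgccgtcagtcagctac
Pms2: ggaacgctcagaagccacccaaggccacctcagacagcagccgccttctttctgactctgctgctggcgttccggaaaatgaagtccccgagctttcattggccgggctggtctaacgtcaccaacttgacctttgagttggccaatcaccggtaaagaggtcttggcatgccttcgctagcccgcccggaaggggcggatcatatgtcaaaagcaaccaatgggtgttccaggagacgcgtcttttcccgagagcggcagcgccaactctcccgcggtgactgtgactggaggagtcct

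Of the 8 pathways nucleotide excision repair had the smallest median change, both in WT and in TAp63-/- tumours. Of its 12 genes 9 were higher in WT tumours (median 0.14, 0 called) and 12 of 12 in TAp63-/- tumours (median 0.34, 1 called). Rad23b (ENSMUSG00000028426, chromosome 4, 55350043 to 55392237, mm10), whose product holds the damage sensor Xpc stable, had 74.4, 75.4 and 63.5 FPKM in WT skin and 62.4, 84.1 and 63.2 in TAp63-/- skin. Tumours had 96.3 and 85.2 in WT and 126, 100.1, 151 and 113 in TAp63-/- mice. Every tumour was above every skin library, by a narrow margin for WT cSCC 2 over TAp63-/- skin 2. Rad23b rose in TAp63-/- tumours (122 ± 21.8 FPKM, SD, n = 4, against 69.9 ± 12.3, n = 3), with a log2 change of 0.80 (SE 0.18, adjusted p = 0.00911). In WT it was 0.35 (SE 0.22, adjusted p = 0.327).

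No damage sensor of this pathway passed. Xpc, which finds distorted DNA, had log2 changes of -0.27 in WT and 0.29 in TAp63-/- tumours. The ultraviolet damage sensor is a pair of unequal RNA levels, with Ddb1 10.2 to 35.2 times Ddb2 in tumours and 12.4 to 23.3 times in skin. Ddb1 had 109 and 62.7 FPKM in WT cSCC and 58.1 to 112 in TAp63-/- cSCC, against 56.9 to 74.5 over all skin, so tumours both overlapped and exceeded skin. For Xpa, the scaffold that checks a lesion, the log2 change was 0.69 in TAp63-/- tumours (SE 0.25, adjusted p = 0.0581) and 0.05 in WT. TAp63-/- skin 1 had the lowest Xpa level of all, 1.61 FPKM.

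Among the nucleases and helicases of excision, Ercc1, which forms a nuclease with Ercc4, had the smallest p in WT, with log2 changes of 0.70 in WT (SE 0.27, adjusted p = 0.118) and 0.54 in TAp63-/- tumours (SE 0.23, adjusted p = 0.0988). It had 15.2 to 19.0 FPKM in skin, 28.3 and 30.3 in WT cSCC and 16.7, 18.3, 34.0 and 28.2 in TAp63-/- cSCC. So 2 of the TAp63-/- tumours lay within the range of skin and the other 4 tumours above it. Its partner Ercc4 had log2 changes of -0.06 in WT and 0.33 in TAp63-/- mice and the nuclease gene Ercc5 of 0.07 and 0.44. The TFIIH helicase genes had changes of 0.10 and 0.23 (Ercc2) and of 0.47 and 0.24 (Ercc3), again in WT and TAp63-/- mice. The transcription-coupled factors Ercc6 (0.25 and 0.38) and Ercc8 (-0.05 and 0.13) did not pass either.

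Of the 3 translesion genes 3 were higher in WT tumours (median 0.64, 0 called) and 2 in TAp63-/- tumours (median 0.37, 1 called). Rad18 (ENSMUSG00000030254, chromosome 6, 112619850 to 112696686), a ubiquitin ligase that marks the replication clamp so that bypass polymerases can enter, had 5.22, 5.73 and 5.17 FPKM in WT skin and 2.72, 5.19 and 5.46 in TAp63-/- skin. Tumours had 14.4 and 6.45 in WT and 6.07, 12.4, 12.4 and 11.6 in TAp63-/- mice. WT cSCC 2 and TAp63-/- cSCC 1 lay just above skin, and the other 4 tumours at 11.6 FPKM or more. The log2 change was 1.09 in TAp63-/- (SE 0.31, adjusted p = 0.0261) and 0.75 in WT (SE 0.37, adjusted p = 0.217). Polh had log2 changes of 0.64 in WT (adjusted p = 0.0958) and 0.37 in TAp63-/- tumours (adjusted p = 0.175), and the bypass scaffold Rev1 of 0.03 and -0.10.

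In base excision and single-strand break repair, 7 of 10 genes were higher in tumours of each genotype and 0 were called in either (medians 0.27 and 0.38). Apex1, the endonuclease that cuts at abasic sites, had the smallest p of the group. It had 26.1, 22.4 and 21.1 FPKM in WT skin, 11.8, 24.2 and 21.6 in TAp63-/- skin, 26.8 and 22.5 in WT cSCC and 23.2, 32.5, 27.8 and 31.2 in TAp63-/- cSCC. The tissues overlapped, and TAp63-/- skin 1 stood lowest (log2 change 0.60 in TAp63-/- tumours, SE 0.23, adjusted p = 0.0770, and 0.08 in WT).

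The glycosylase genes, whose products remove single bases from DNA, all had a higher mean in tumours. Log2 changes were 0.33 in WT and 0.42 in TAp63-/- mice for Ogg1. In the same order they were given by Mutyh (0.55 and 0.80), Neil1 (0.25 and 0.34), Neil3 (0.49 and 0.45) and Ung (0.39 and 0.27). Of the genes of nick sealing, the nick sensor Parp1 had log2 changes of -0.14 and -0.06, the scaffold Xrcc1 of -0.24 and -0.29, and the ligase genes Lig1 of -0.09 and 0.43 and Lig3 of 0.28 and -0.03. None of these 9 passed in either genotype. Xrcc1 had 5.25 to 9.10 FPKM in tumours and 6.85 to 10.2 in skin.

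Both mismatch repair genes had a higher mean in tumours of each genotype (medians 0.58 in WT and 0.67 in TAp63-/- mice), and Pms2 was called in the latter. Pms2 (ENSMUSG00000079109, chromosome 5, 143909964 to 143937309), a nuclease subunit that nicks the new strand, had 2.85, 3.29 and 3.02 FPKM in WT skin and 1.98, 2.80 and 2.05 in TAp63-/- skin. Tumours had 7.91 and 3.63 in WT and 5.51, 5.38, 7.38 and 5.54 in TAp63-/- mice. All tumours were above all skin, and 3 of the TAp63-/- tumours lay between 5.38 and 5.54 FPKM while the other was higher. Pms2 rose in TAp63-/- tumours (5.95 ± 0.957 FPKM, n = 4, against 2.28 ± 0.456, n = 3), with a log2 change of 1.08 (SE 0.22) and the lowest adjusted p of the 45 genes, 0.00541. In WT the change was 0.67 (SE 0.27, adjusted p = 0.133). Pms2 overlaps Rsph10b2, at a mean of 0.0522 FPKM in tumours, and the antisense gene Gm17135, listed at 0. Msh6, which binds mismatches, had log2 changes of 0.49 and 0.25 and did not pass. The ratio of Msh6 to Pms2 was 0.989 to 1.70 in tumours and 1.80 to 3.44 in skin, with no overlap. Every other partner ratio computed overlapped between tissues, and Pms2 by itself already separated them.

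All 8 homologous recombination genes were higher in tumours of each genotype, with medians of 0.84 in WT (0 called) and 0.74 in TAp63-/- mice (3 called, 37.5%, beside 13.0% of all tested genes, 1 of 2 mismatch and 2 of 4 checkpoint kinase genes). Palb2, 1 of the 3 called, and Brca2 and Exo1 had passed the filter only with the tumours, so these counts are a description. Rad54l (ENSMUSG00000028702, chromosome 4, 116094264 to 116123690), a motor protein that helps a broken strand invade an intact DNA duplex, had 1.73, 1.35 and 1.49 FPKM in WT skin and 0.754, 1.36 and 1.88 in TAp63-/- skin. Tumours had 5.05 and 3.05 in WT and 3.38, 2.49, 4.89 and 4.68 in TAp63-/- mice, so no tumour overlapped with skin. The log2 change was 1.06 in TAp63-/- (SE 0.25, adjusted p = 0.0104) and 0.98 in WT (SE 0.30, adjusted p = 0.0575). Rad54l shares 2780 bases with the neighbouring gene Lrrc41, which had means of 21.4 FPKM in tumours and 15.9 in skin, and whether reads were counted by strand is not stated. The same holds for Apex1, Fanci and Xrcc6, which overlap the expressed genes Tmem55b (1070 bases), Polg (1475) and Desi1 (41340). Desi1 had means of 23.85 FPKM in tumours and 25.99 in skin. Strand is likewise open for Xpa (Ncbp1, 17057 bases), Ddb2 (Acp2), Ercc2 (Klc3), Rev1 (Eif5b), Ogg1 (Camk1), Lig1 (6330408A02Rik), Lig3 (Rffl) and Msh6 (Fbxo11). Brca2, Exo1, Fancd2 and Atr contain small RNA genes.

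Palb2 (ENSMUSG00000044702, chromosome 7, 122107262 to 122132946), which links Brca1 to Brca2, had 0.677, 0.624 and 0.715 FPKM in WT skin and 0.351, 0.971 and 0.844 in TAp63-/- skin. Tumours had 2.94 and 1.44 in WT and 2.78, 1.23, 3.68 and 2.02 in TAp63-/- mice. The lowest tumour stood above the highest skin library, at levels near 1 FPKM. The log2 change was 0.96 in TAp63-/- (SE 0.27, adjusted p = 0.0250) and 0.89 in WT (SE 0.33, adjusted p = 0.103), and the pseudocount of 1 FPKM makes both smaller than the ratios of FPKM above.

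Rad51ap1 (ENSMUSG00000030346, chromosome 6, 126923050 to 126939587), a cofactor of strand exchange, had 2.05, 3.25 and 2.89 FPKM in WT skin and 1.39, 2.52 and 3.15 in TAp63-/- skin. Tumours had 8.90 and 5.36 in WT and 3.18, 6.49, 5.18 and 7.81 in TAp63-/- mice. TAp63-/- cSCC 1 lay within the skin range and the other 5 tumours above it. The log2 change was 0.97 in TAp63-/- (SE 0.29, adjusted p = 0.0311) and 1.10 in WT (SE 0.35, adjusted p = 0.0657).

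Brca2, a mediator of strand exchange whose promoter is printed above, had the widest gap of the 45 genes between the 2 WT tumours on the log2(FPKM + 1) scale (1.78). It had 5.60 FPKM in WT cSCC 1 and 0.926 in WT cSCC 2, 1.66, 1.83, 1.44 and 3.40 in TAp63-/- cSCC and 0.586 to 0.874 over the 6 skin libraries. WT cSCC 2 exceeded skin by a small margin. Its log2 changes of 0.96 in WT (adjusted p = 0.1701) and 0.80 in TAp63-/- tumours (adjusted p = 0.117) did not pass. Brca1 had log2 changes of 0.79 in WT and 0.65 in TAp63-/- mice and its partner Bard1 of 0.61 and 0.67, and their ratio was 1.01 to 1.70 in tumours and 1.02 to 1.45 in skin. The helicase gene Blm had log2 changes of 0.61 and 0.67 and the exonuclease gene Exo1 of 0.59 and 0.63. None of these 5 passed.

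The Fanconi clamp genes Fanci and Fancd2, whose products are loaded at DNA crosslinks, were higher in tumours of both genotypes without a call (medians 0.80 and 0.90). Fanci had 1.08, 1.05 and 1.01 FPKM in WT skin and 0.502, 0.928 and 0.842 in TAp63-/- skin. Tumours had 4.59 and 1.44 in WT and 1.16, 1.65, 4.38 and 3.45 in TAp63-/- mice. Tumours split into 3 near the skin level and 3 well above it, and none overlapped with skin (0.97 in TAp63-/-, SE 0.35, adjusted p = 0.0615, and 0.85 in WT, SE 0.42, adjusted p = 0.208). Fancd2 had log2 changes of 0.74 and 0.83, and 1.55 to 5.98 FPKM in tumours overlapped with 0.533 to 2.80 in skin.

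All 4 checkpoint kinase genes had a higher mean in tumours (medians 0.36 in WT and 0.62 in TAp63-/- mice), and Chek2 and Atr passed. Chek2 (ENSMUSG00000029521, chromosome 5, 110840017 to 110874133) encodes the kinase that relays the break signal of Atm. It had 2.30, 1.502 and 1.36 FPKM in WT skin and 1.04, 2.07 and 2.37 in TAp63-/- skin. Tumours had 8.28 and 3.77 in WT and 4.31, 3.83, 8.23 and 4.51 in TAp63-/- mice. All tumours were above all skin, with WT cSCC 1 and TAp63-/- cSCC 3 far above the other 4. Chek2 rose by 1.31 in WT (SE 0.36, adjusted p = 0.0422) and by 1.12 in TAp63-/- tumours (SE 0.30, adjusted p = 0.0203) on the log2 scale, and the change did not differ between genotypes beyond error (interaction -0.19, SE 0.47). In WT the call was lost without WT cSCC 1 and without any 1 of the WT skin libraries.

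Atr (ENSMUSG00000032409, chromosome 9, 95857597 to 95951644), the kinase that answers to stalled replication, had 1.91, 1.98 and 1.96 FPKM in WT skin and 2.10, 2.37 and 2.09 in TAp63-/- skin. Tumours had 3.27 and 2.02 in WT and 2.95, 3.79, 4.34 and 3.80 in TAp63-/- mice. WT cSCC 2 lay within the skin range, and all TAp63-/- tumours lay above it. The log2 change was 0.56 in TAp63-/- (SE 0.17, adjusted p = 0.0351) and 0.28 in WT (SE 0.21, adjusted p = 0.403). Chek1, the kinase downstream of Atr, had 3.20 to 6.71 FPKM in skin and 4.19 to 12.01 in tumours and did not pass (log2 changes of 0.44 in WT and 0.68 in TAp63-/- mice). Nor did Atm, which senses double-strand breaks (0.12 and 0.16).

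**Figure D3:**
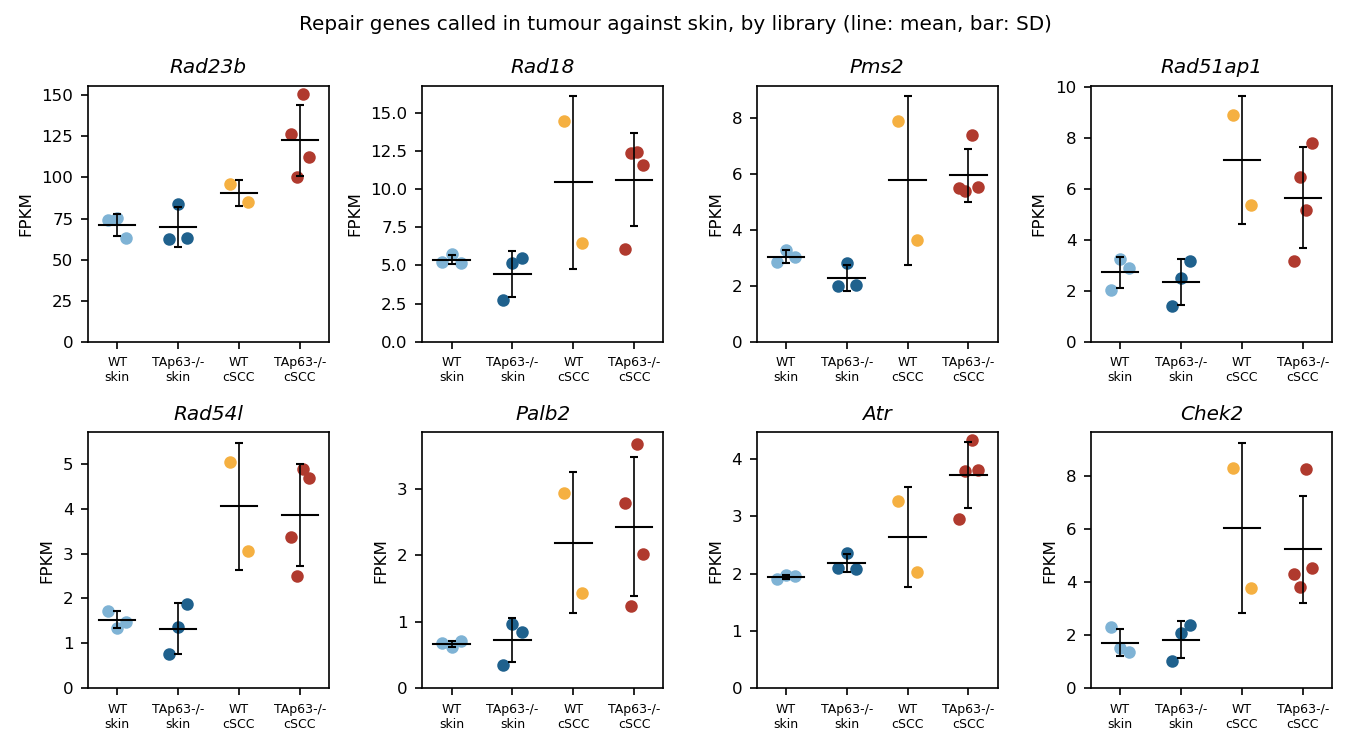
FPKM (y axes, from 0) of the 8 repair genes called in tumour against skin of either genotype, 1 point per library in the 4 groups, with the mean as a line and the SD as a bar. All 6 tumours lie above all skin libraries for Rad23b, Rad18, Pms2, Rad54l, Palb2 and Chek2, while Rad51ap1 and Atr each have 1 tumour within the skin range.

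All 4 end joining genes, whose products rejoin broken ends directly, were higher in tumours of each genotype without a call (medians 0.52 and 0.59). Xrcc6, a subunit of the Ku ring that grips DNA ends, had 12.3, 10.2 and 11.8 FPKM in WT skin, 7.94, 9.38 and 13.3 in TAp63-/- skin, 20.1 and 9.92 in WT cSCC and 13.7, 18.8, 13.9 and 19.97 in TAp63-/- cSCC. WT cSCC 2 lay within the skin range and the other 5 tumours above it (0.66 in TAp63-/-, SE 0.25, adjusted p = 0.0753, and 0.29 in WT). The other Ku subunit gene, Xrcc5, had 6.14 to 8.41 FPKM in skin, and TAp63-/- cSCC 2 at 6.23 stayed within that range while the other 5 tumours had 10.3 to 18.7. Prkdc, the kinase recruited by Ku, had log2 changes of 0.41 and 0.28. Lig4, which seals the ends, had 1.88 to 2.31 FPKM in skin and 2.34 to 6.07 in tumours (0.64 and 0.52), so it did not overlap and yet did not pass.

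The rest of these pathways was read from a list of 96 further repair genes, of which 94 were tested. In WT, 1 was called higher and 1 lower (1.06% each, beside 4.66% and 6.77% of all tested genes, median log2 change 0.21). In TAp63-/- mice 9 were called higher (9.57%, beside 13.0% of all) and 1 lower (1.06%, beside 14.2%), with a median of 0.24. Ube2b, the ubiquitin-conjugating partner of Rad18, fell in both genotypes. It had 253 to 267 FPKM in WT skin, 262 to 372 in TAp63-/- skin, 127 and 105 in WT cSCC and 111 to 148 in TAp63-/- cSCC, so tumours and skin did not overlap. The log2 change was -1.18 in WT (SE 0.21, adjusted p = 0.00688) and -1.26 in TAp63-/- tumours (SE 0.18, adjusted p = 0.000565), while Rad18 itself was higher in all tumours than in skin.

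Apex2, a relative of Apex1, was the other call in WT (1.13, SE 0.32, adjusted p = 0.0453). In TAp63-/- tumours Alkbh2, which reverses base alkylation directly, rose by 1.10, and Uvssa of transcription-coupled repair by 0.72. In base excision the glycosylase gene Tdg rose by 0.66 and the end-processing factor Aplf by 0.71. The break-processing genes Rbbp8 and Rad50 rose by 0.72 and 0.55, and Topbp1, which activates Atr, by 0.66. Dna2, a nuclease of resection, rose by 0.76 (adjusted p = 0.0487) and was named after its values were seen.

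The size of the change in WT differed with the library left out. Without WT cSCC 1 the median over the 45 genes was 0.07, with 28 higher and 0 called (1.49% of all tested genes were called higher). Without WT cSCC 2 it was 0.78, with 44 higher and 5 called (Pms2, Brca1, Brca2, Rad54l and Chek2, beside 6.34% of all tested genes). In TAp63-/- mice the median lay between 0.44 and 0.62 with any 1 library left out, and 2 to 9 genes were called, beside 944 to 2262 of all 14752 tested genes called higher. Without TAp63-/- skin 1, which was lowest in most genes, Rad23b and Pms2 were the 2 calls, beside the 944 over all genes. Without TAp63-/- cSCC 3 there were 4 (Rad23b, Pms2, Rad54l and Chek2), beside 10.8%. Rad23b and Pms2 were called with each of the 7 libraries left out in turn, Rad54l and Chek2 in 6, Rad18 in 4, Palb2 in 3, and Rad51ap1 and Atr in 2.

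**Figure D4:**
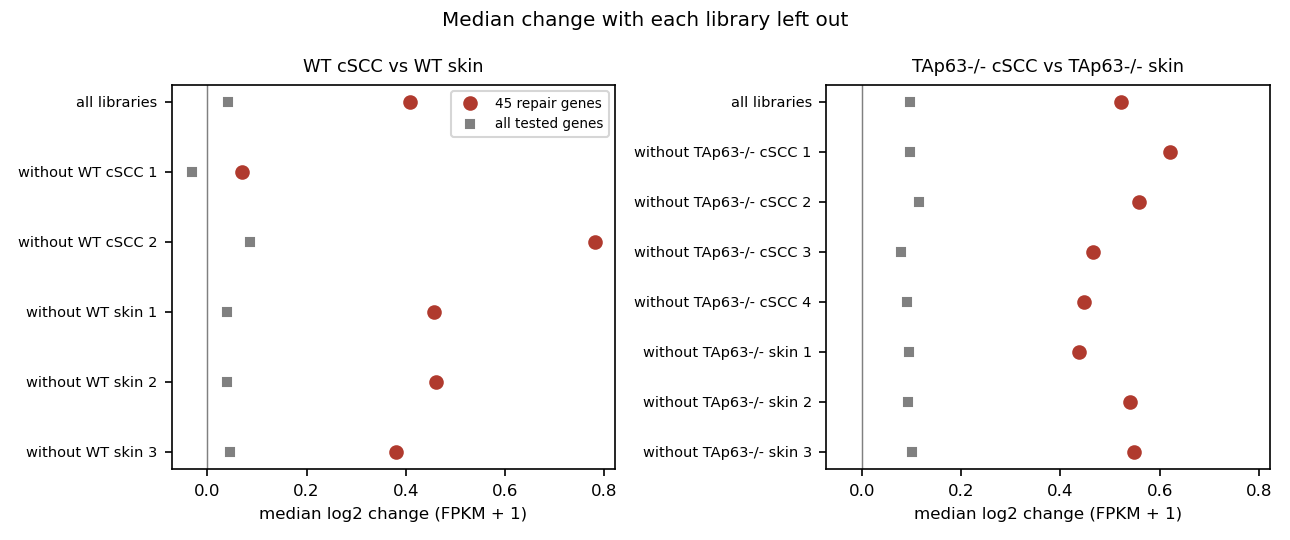
Median log2 change (x axis) from skin to tumour over the 45 repair genes (red circles) and over all tested genes (grey squares), with all libraries and with each library of the comparison left out (y axis), in WT (left) and TAp63-/- mice (right). The WT median runs from 0.07 without WT cSCC 1 to 0.78 without WT cSCC 2, and the TAp63-/- median from 0.44 to 0.62.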

How the data were processed

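The authors deposited 1 table of values per gene for 12 libraries, made with TopHat2 2.0 and Cufflinks 2.0 on mm10, per the submitters' processing notes. Per the labels' protocols, total RNA was taken from frozen tissue with the Ambion miRVANA kit and libraries were made with the Illumina TruSeq kit. The deposited values were read as FPKM, a unit inferred from Cufflinks and the values. In every library at least 95.98% of the non-zero values, once sorted, were within 1% of a common distribution, so quantile normalization by the authors was inferred, and it can hide a change shared by most genes. Counting by strand is not given in the sources used here. Depth is unknown, so no counting interval is given.

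The 34303 symbols were summed from 37924 entries. The 14752 genes that reached 1 FPKM in 2 or more libraries were fitted as log2(FPKM + 1) with limma 3.58.1 in R 4.3.3 (variance trend, moderated, two-sided). All adjusted p values are limma's with Benjamini-Hochberg adjustment over these genes, and a gene was called at an adjusted p below 0.05. Fold changes are on the log2(FPKM + 1) scale, which understates those of low genes. Genotypes were compared on the 6 libraries of a tissue, and tumour with skin and the interaction on all 12. The labels do not say whether libraries came from separate animals, so p-values measure the spread between these samples. The procedure was tested on simulated data in which only genes at higher levels were changed. Recovery of changes at the low levels of many repair genes was therefore not tested.

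The genes, the further repair genes and the marker lists were chosen with earlier results of these data known. Values by library are given for every called gene, for the gene with the smallest p of a pathway with no call, and for each gene with a tumour far from its group. Other genes so shown (Ercc8, Polh, Brca2, Ercc1, Ddb1) were picked after their values were seen. Of the further repair genes, at most 2 called per pathway, direction and comparison are named, apart from Dna2, which was added after its values were seen. Results for some genes are not reported here. Of the 45 genes, 25 had the same coordinates in the GENCODE M21 annotation. Alternatives covered the pseudocount, the filter, rescaling, array weights, listed zeros, covariates (mitosis, muscle, sex), the libraries in the fit and each library left out.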

Additional observations from a re-analysis of the deposited data

Results flagged for a closer look

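In the 4 TAp63-/- tumours, 3 of the 45 repair genes had 1 library far from the other 3, by a gap, as a share of the group's range, above Dixon's 95% critical value for 4 values. Chance flags about 1 in 20 groups. Rad18 was low in TAp63-/- cSCC 1, at 6.07 FPKM beside 11.6 to 12.4 in the others (gap 0.863 of the range). In TAp63-/- cSCC 3, Pms2 was high at 7.38 FPKM beside 5.38 to 5.54 (0.920), and Chek2 was high at 8.23 FPKM beside 3.83 to 4.51 (0.845). All 3 genes were among the 8 called in TAp63-/- tumours. Without TAp63-/- cSCC 3, Pms2 and Chek2 were still called and Rad18 was not. Without TAp63-/- cSCC 1 all 3 were called.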

How the results depend on the processing

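Counts of called repair genes in both genotype comparisons and the interaction, and counts called lower in tumours, were 0 under every alternative run. Of 45 genes, the number called higher in WT tumours (1) was 0 with a filter of 5 FPKM, with no filter and with a mitosis, muscle or sex covariate, 2 with median-of-ratios rescaling or array weights, and 0 to 5 with 1 library left out. With only the 2 groups in the fit it was again 1, but the gene was Ercc1 and not Chek2. Over all genes tested in the same settings, 5.65% were called higher in WT tumours with the filter and 2.53% with no filter. Rescaling gave 4.48%, array weights 4.92% and only the 2 groups 5.37% over all genes. The number called higher in TAp63-/- tumours (8) was 5 with a filter of 5 FPKM, which 27 of the genes passed, 5 with only the 2 groups in the fit, 17 with array weights, 0 with a mitosis, muscle or sex covariate, and 2 to 9 with 1 library left out. A pseudocount of 0.1 FPKM, no filter and rescaling gave 9, 7 and 8. Of all genes tested in these settings, 14.1% were called higher in TAp63-/- tumours with the filter and 7.58% with only the 2 groups. Array weights raised the count over all 14752 tested genes as well, to 2657 from 1920 in the main fit. The pseudocount gave 13.6%, no filter 7.28% and rescaling 10.5% over all genes. With the mitosis covariate the changes of the 8 genes were 0.39 (Atr) to 0.85 (Pms2), and with the sex covariate, informed by TAp63-/- cSCC 1 alone, 0.31 (Atr) to 1.15 (Palb2). With the muscle covariate changes turned negative for Chek2 in WT (-0.29) and, in TAp63-/- mice, for Chek2 (-1.06), Rad18 (-0.85), Palb2 (-0.85), Rad54l (-0.65), Pms2 (-0.49), Atr (-0.34) and Rad51ap1 (-0.31). The muscle list did not overlap between tissues (mean log2 of 2.63 to 6.39 in tumours and 9.19 to 10.3 in skin), so this covariate nearly restates the tissue, and with it 0 of all tested genes were called in TAp63-/- tumours. No paired analysis was possible because the labels give the groups no shared replicate numbers. The chief limits are 2 WT tumours, unknown depth, and tissue joined to age, radiation and, but for 1 tumour, sex.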
